A study of Mus musculus with 79 samples.

Results

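Sox1, Sox2 and Sox3 are the SoxB1 group of mouse Sox genes, and their 3 rows were read in every column of 3 deposited expression tables, each of 23983 gene symbols. The tables cover 9 bulk libraries and 53 single cells from the caudal end of mouse embryos. The study's subject is the neuro-mesodermal progenitors there, cells marked by T (Brachyury) together with Sox2, and how these factors set a neural or a mesodermal course. Embryos were derived from embryonic stem cells by tetraploid complementation, in which the host embryo contributes mainly the extraembryonic tissues, and samples were pooled before the sort. The sort marker (a reporter or an antibody) is not given in the sources used here, and neither is the number of embryos or of stem cell clones.

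The sort table holds 3 wild-type (WT) C57BL/6N fractions of Theiler stage 12 (TS12), sorted as T+, T+ Sox2+ and Sox2+. The knockout table holds T+ cells of WT C57BL/6N embryos at TS12 and TS13, T+ cells of T2J/2J embryos, titled T knockout (T KO), at the same stages on C57BL/6J, and 2 Tbx6+ libraries of TS14 on C57BL/6J. Strain and genotype therefore cannot be told apart in the T KO comparison. The Tbx6+ libraries are named here by their titles, WT and Tbx6 KO, because their source names give the genotypes the other way round. The 53 cells were T+ Sox2+ WT C57BL/6N cells of TS13, captured on 1 Fluidigm C1 run at 55 sites called to hold a cell. Every bulk group had 1 library, so differences between libraries carry counting error only and no error between embryos.

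SoxB1 proteins share a DNA-binding HMG domain and keep neural cells in a progenitor state, and they often bind together with a partner such as a POU factor. Sox2 is also a factor of pluripotent cells and is expressed in axial progenitors that still form mesoderm. Sox3 is expressed in early neural ectoderm and lies on the X chromosome. Sox1 is known as the most restricted to committed neural tissue. T and Tbx6 are T-box factors of the mesoderm side: T is needed for posterior mesoderm, and Tbx6 mutant embryos are known for forming ectopic neural tubes in place of somites.

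All 3 genes have no intron. In the RefSeq annotation of GRCm38.p6, the build the tables' mm10 corresponds to, Sox1 lies at chr8:12395519-12399555, Sox2 at chr3:34649995-34652461 and Sox3 at chrX:60891366-60893430. Sox2 lies inside the longer transcript Sox2ot, at chr3:34560381-34677993. Sox1 likewise lies inside Sox1ot, at chr8:12385771-12436732, which has no row in the bulk expression tables. The 250 bases before the RefSeq start were held for Sox1, at chr8:12395269-12395518 on the plus strand, and Sox2, at chr3:34649745-34649994 on the plus strand. They are shown because the SoxB1 genes, Sox3 included, were higher in T KO cells, but no stretch was held for Sox3. Capitals mark matches to the letters searched on either strand.
Sox1: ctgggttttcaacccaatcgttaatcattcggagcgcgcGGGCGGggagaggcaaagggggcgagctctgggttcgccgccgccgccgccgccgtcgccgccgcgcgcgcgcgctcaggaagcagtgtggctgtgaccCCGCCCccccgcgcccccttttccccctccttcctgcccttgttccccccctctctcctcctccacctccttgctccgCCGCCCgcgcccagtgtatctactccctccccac
Sox2: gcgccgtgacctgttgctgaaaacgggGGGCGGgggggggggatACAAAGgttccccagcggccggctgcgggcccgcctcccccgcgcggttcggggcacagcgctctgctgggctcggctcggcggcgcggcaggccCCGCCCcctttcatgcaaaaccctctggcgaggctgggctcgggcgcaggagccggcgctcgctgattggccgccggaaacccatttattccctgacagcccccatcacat
The letters were the GC box GGGCGG, which binds Sp and Klf factors, the T-box letters TCACACCT, and the Sox letters ACAATG and ACAAAG. The GC box stood 3 times in the Sox1 stretch, starting 211, 112 and 34 bases before the start, and 2 times in the Sox2 stretch, at 223 and 111 bases before it. It was in 32.7% of 32851 RefSeq promoter stretches of the same length. ACAAAG was found once, 206 bases before the Sox2 start, and was in 16.5% of all stretches. TCACACCT and ACAATG were in neither, against 1.12% and 10.7% of all, which says only that these letters are not in these windows. Both stretches were rich in G and C, at 71.2% for Sox1 and 72% for Sox2 against a median of 52.4%, and they held 29 and 27 CG pairs against a median of 6.

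Values are in FPKM (fragments per kilobase of transcript and per M mapped fragments), and so are levels per length. The libraries held 20.8 to 43.5 M fragments, as estimated from the smallest steps of the values. With that depth, the FPKM of Sox1 and of Sox3 came within 0.005 fragments of a whole number in 9 of 9 libraries each. Those of Sox2 came within 0.05 in 0 of 9 and lay up to 0.468 away, and whether fragments shared with Sox2ot take part was not tested. Intervals below are 95% exact Poisson intervals of the fragments, or conditional binomial ones for a ratio, and cover counting error only. The targeted genes were read as a check: T was at 69.8 and 76.4 FPKM in WT T+ cells of TS12 and TS13 against 4.61 and 3.32 in T KO cells, and Tbx6 at 31.5 FPKM in the library titled WT against 10.2 in the one titled KO. In the sorted fractions T mRNA was at 141 FPKM in T+, 341 in T+ Sox2+ and 192 in Sox2+ cells, so the Sox2+ fraction was not low in T mRNA. The library of T+ WT cells at TS12 stood apart: 1066 of 1502 sensory receptor genes (olfactory, vomeronasal and taste receptors) were above 0 there, with a mean of 0.234 FPKM, against 26 to 39 genes and means of 0.00824 to 0.018 FPKM in the other 8 libraries.

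Across the sorted fractions, all 3 SoxB1 genes were lowest in T+ cells, intermediate in T+ Sox2+ cells and highest in Sox2+ cells. Sox2 itself, the gene of the sort, was at 2.82 FPKM (2.44 to 3.24) in T+, 16.4 (15.4 to 17.5) in T+ Sox2+ and 50.5 (48.9 to 52.2) in Sox2+ cells, which describes the sort and is no finding. Sox3 was at 0.403 FPKM (0.258 to 0.599), 6.61 (5.91 to 7.38) and 31.1 (29.7 to 32.5) in the same order, from 24, 318 and 1833 fragments. Sox1 was at 0.180 FPKM (0.112 to 0.275), 5.28 (4.82 to 5.76) and 28.3 (27.4 to 29.3), from 21, 496 and 3270 fragments. No interval of a gene overlapped that of the same gene in another fraction.

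As ratios of FPKM, the 2 genes that were not sorted on differed more between fractions than Sox2 did. Between Sox2+ and T+ Sox2+ cells, Sox1 was 5.37-fold higher in Sox2+ (4.89 to 5.91) and Sox3 4.70-fold (4.17 to 5.31), against 3.08-fold for Sox2 (2.86 to 3.31). Between T+ Sox2+ and T+ cells, Sox1 was 29.3-fold higher in T+ Sox2+ (18.9 to 47.7), Sox3 16.4-fold (10.8 to 26) and Sox2 5.82-fold (4.99 to 6.81). Over the whole span from T+ to Sox2+ cells the ratios were 157 for Sox1 (103 to 254), 77.2 for Sox3 (51.7 to 121) and 17.9 for Sox2 (15.5 to 20.8). In each of these 3 comparisons the counting intervals of Sox1 and Sox3 lay above that of Sox2, while those of Sox1 and Sox3 overlapped each other. The ratios to T+ cells rest on 21 fragments of Sox1 and 24 of Sox3 there. In that fraction 10 sensory receptor genes were at or above Sox1 and 4 at or above Sox3.

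**Figure D1:**
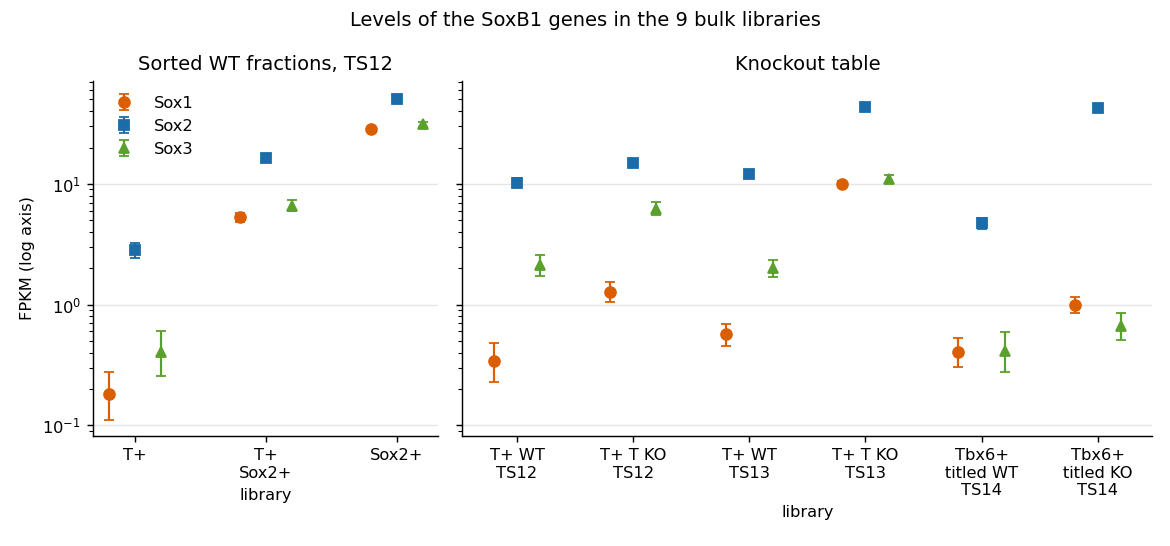
Level of Sox1, Sox2 and Sox3 in each bulk library, in FPKM on a log axis, with 95% counting intervals as bars; the sorted WT fractions are on the left and the knockout table is on the right. All 3 genes step up from T+ to Sox2+, and in the knockout table the T+ T KO library of TS13 holds the highest level of each gene, with Sox2 in the Tbx6+ library titled KO at a level whose interval overlaps it.

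Calls between libraries used the difference of log2(FPKM + 1), at least 1 in size (2-fold), among genes of at least 5 FPKM in 1 of the 2 libraries. On that scale all 3 members passed in each pair of fractions. In the pairs with T+ cells each member reached 5 FPKM only in the other fraction. T+ Sox2+ over Sox2+ gave -2.22 for Sox1, -1.57 for Sox2 and -2.07 for Sox3, where 1.41% of all genes were lower by at least 2-fold and 1.52% higher by at least 2-fold. T+ Sox2+ over T+ gave 2.41, 2.19 and 2.44 in that order, with 1.29% of all genes higher and 1.84% lower. T+ over Sox2+ gave -4.64, -3.75 and -4.51, with 3.21% lower and 3.61% higher. Because the fractions were sorted on Sox2, these counts are set beside the background as a description. The comparisons share libraries.

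The other genes of the neural progenitor list (24 genes, among them Pax, Irx, Nkx and Zic factors) showed the same order less fully. Of 16 measured between T+ Sox2+ and Sox2+ cells, 6 were lower in T+ Sox2+ by at least 2-fold and 2 higher, with a median difference of -0.58 against -0.02 for all genes. Nkx2-9, a homeobox factor of the ventral neural tube, was at 0.479 against 11.8 FPKM, and Olig3, a factor of dorsal progenitors, at 0.437 against 7.26. Fabp7, which binds fatty acids and marks neural progenitors, went the other way at 32.8 against 6.75 FPKM. Between T+ Sox2+ and T+ cells, 5 of 12 were higher and 0 lower, with Lrp2, an endocytic receptor of the neuroepithelium, at 5.91 against 0.578 FPKM and Pax3, a dorsal neural and somite factor, at 7.17 against 1.99. Between T+ and Sox2+ cells, 8 of 16 were lower in T+ and 0 higher.

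The T+ fraction also differed from the other fractions in markers of other tissues. The summed level of 12 blood and vessel markers, globins included, was 12049 FPKM in T+ against 115 in T+ Sox2+ and 233 in Sox2+ cells, and 11 of 11 measured genes passed 2-fold, higher in T+, against Sox2+ cells. The sum of 11 lateral and intermediate mesoderm markers was 197 FPKM against 33.6 and 15.8, with 8 of 8 measured higher. No marker of either list was at 0 in any fraction. The part of these cells in the low SoxB1 levels of the T+ fraction was not tested. In bulk samples, fewer SoxB1-positive cells and less SoxB1 RNA per cell cannot be told apart.

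T+ cells of T KO embryos held more SoxB1 RNA than WT T+ cells at both stages, and the difference was larger at TS13. Sox1 was at 0.339 FPKM (0.228 to 0.483) in WT and 1.27 (1.04 to 1.54) in T KO cells at TS12, and at 0.569 (0.458 to 0.697) and 9.98 (9.44 to 10.6) at TS13. The TS13 T KO library stood alone for this gene, with 1269 fragments against 30 to 107 in the other 3 T+ libraries. Sox2 was at 10.2 FPKM (9.39 to 11.1) in WT and 14.9 (13.9 to 15.98) in T KO cells at TS12, and at 11.99 (11.3 to 12.7) and 43.5 (42.05 to 45) at TS13. Sox3 was at 2.12 FPKM (1.72 to 2.59) and 6.24 (5.52 to 7.04) at TS12, and at 1.99 (1.70 to 2.32) and 11.0 (10.2 to 11.8) at TS13. For each gene both T KO values lay above both WT values, and the counting intervals of the genotypes did not overlap.

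As ratios of T KO to WT, Sox1 was 3.77-fold higher at TS12 (2.49 to 5.85) and 17.6-fold at TS13 (14.2 to 21.9). Sox3 was 2.95-fold higher at TS12 (2.33 to 3.76) and 5.51-fold at TS13 (4.64 to 6.56). Sox2 was 1.46-fold higher at TS12 (1.30 to 1.63) and 3.63-fold at TS13 (3.40 to 3.88). The intervals of the 2 stages did not overlap for any of the 3 genes, in terms of counting error; with 1 library of each kind, the difference between the stages could not be tested over embryos. Sox1 in the WT library of TS12 rested on 30 fragments, and 164 sensory receptor genes were at or above its level there, and the ratio of 3.77 depends on that value; how much of it is background was not tested.

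On the log2(FPKM + 1) scale, 1 of the 2 members that reached 5 FPKM was called at TS12: Sox3 at 1.22, where 0.975% of all genes were called higher and 1.1% lower. Sox2 differed by 0.50, and Sox1, below the minimum in both libraries, by 0.77. Under upper-quartile scaling the median of all genes at TS12 moved to -0.57, the Sox2 value turned to -0.09 and Sox3 to 0.75, which are 0.48 and 1.32 relative to that median. Set against the WT library of TS13 in place of that of TS12, the T KO library of TS12 differed by 1.27 for Sox3, 0.54 for Sox1 and 0.29 for Sox2. At TS13 all 3 members were called, with Sox1 at 2.81, Sox3 at 2.00 and Sox2 at 1.78, where 1.2% of all genes were called higher and 1.47% lower. Only 5 of the 8191 genes compared at TS13 had a larger difference than Sox1, 15 than Sox3 and 22 than Sox2. At TS13 Sox1 and Sox3 reached 5 FPKM only in the T KO library, as did Sox3 at TS12.

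**Figure D2:**
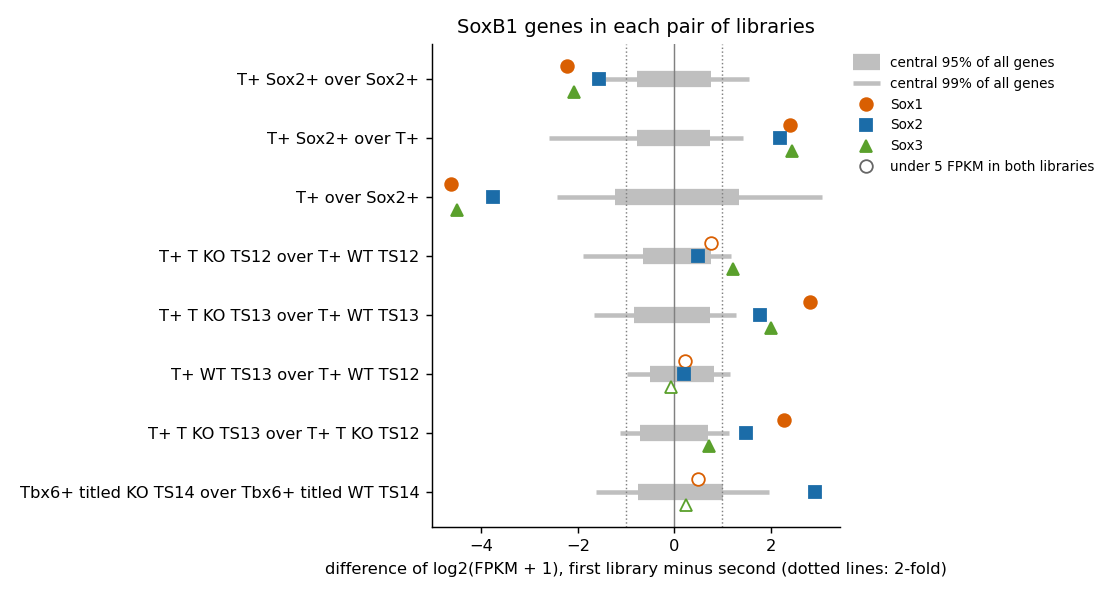
Difference of log2(FPKM + 1) of each SoxB1 gene in 8 pairs of libraries, beside all genes compared (thick bar, the central 95%; thin line, the central 99%); open symbols are genes under 5 FPKM in both libraries and dotted lines mark 2-fold. At TS13 the 3 genes lie at 1.78 to 2.81 in T KO over WT, outside the bars, while in WT TS13 over TS12 they lie between -0.06 and 0.23.

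The fit across both stages, limma with stage and genotype on the 4 T+ libraries, adjusted by the Benjamini-Hochberg method over 8444 genes, called Sox3 alone among the 3. Sox3 was under 5 FPKM in both WT libraries and entered the fit only through the T KO libraries. Sox1 entered it only through the T KO library of TS13. Sox3 rose by 1.61 (SE 0.28, adjusted p = 0.027 by limma), where 0.462% of all genes rose and 0.616% fell. Sox2 differed by 1.14 (SE 0.25, adjusted p = 0.074 by limma) and Sox1 by 1.79 (SE 0.55, adjusted p = 0.2 by limma), so neither passed at 0.05. With 1 residual degree of freedom these p-values rest only partly on how alike the effect was at both stages. They also rest on variances borrowed from other genes of similar level, and they do not measure the spread between embryos. For Sox1 and Sox2 the effect was far larger at TS13. The SE of Sox2 was below that of Sox3. Its differences at TS12 and TS13, 0.50 and 1.78, nevertheless lay farther apart than 1.22 and 2.00 for Sox3. The Sox3 call was lost without the stage term (adjusted p = 0.2 by limma). It was also lost in fits that left out any 1 of the 4 libraries. Those fits had no stage term either, and gave Sox3 differences of 1.25 to 1.97. Without the T KO library of TS13 the Sox2 difference was 0.40 and Sox1 was below the minimum, and without that of TS12 they were 1.88 and 2.92. The Sox3 call was also lost with upper-quartile scaling (adjusted p = 0.17 by limma) and against a minimum fold of 1.5 (adjusted p = 0.35 by limma). That scaling used the upper quartile of the values above 0 in each library. It moved the median of all genes to -0.57 in both pairs with the WT library of TS12. In the other pairs that median was between -0.04 and 0.04.

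With stage, the SoxB1 genes differed between T KO libraries but little between WT libraries. From TS12 to TS13 in T KO cells, Sox1 was 7.83-fold higher (6.42 to 9.63), Sox2 2.92-fold (2.70 to 3.17) and Sox3 1.76-fold (1.53 to 2.03). Sox1 at 2.27 and Sox2 at 1.49 passed 2-fold on the log2(FPKM + 1) scale, where 0.735% of all genes were higher and 0.845% lower, and Sox3 at 0.73 did not. Sox1 reached 5 FPKM only in the TS13 library of this pair. In WT cells the ratios were 1.68 for Sox1 (1.1 to 2.63), 1.17 for Sox2 (1.06 to 1.30) and 0.941 for Sox3 (0.728 to 1.22), and none passed, where 1.02% of all genes were higher and 0.486% lower. The WT comparison rests on the TS12 library with the sensory receptor background, and its Sox2 difference of 0.21 turned to -0.39 under upper-quartile scaling, which moved the median of all genes by as much as at TS12 above, to -0.57. With the mean sensory receptor level subtracted, an alternative chosen after seeing the data, Sox1 in T KO over WT at TS12 was at 1.03 and Sox3 at 1.33, and the small Sox3 difference between the WT stages turned from -0.06 to 0.05.

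Genes that act with or beside SoxB1 were also read in T KO cells. Of 4 tested partner factors, Zic2, a zinc finger factor of early neural tissue, rose by 1.31 (SE 0.17, adjusted p = 0.0057 by limma), from 5.67 and 8.78 FPKM in WT to 13.2 and 27.32 in T KO. Pou5f1, the POU partner of Sox2 in pluripotent cells, fell by 1.83 (SE 0.20, adjusted p = 0.0022 by limma), from 35.7 and 9.72 FPKM to 12.01 and 1.40. Of 12 tested neural progenitor genes, Zic2 was the 1 that rose and 0 fell, with a median of 0.30 against 0.00 for all genes tested. At TS13 alone 5 of 11 were at least 2-fold higher, led by Lrp2 (12.3 against 3.40 FPKM), and 1, Hes5, was lower (0.973 against 5.15). Of 12 tested presomitic and paraxial mesoderm genes 10 fell and 0 rose. Among them Msgn1, a factor of presomitic mesoderm, fell by 4.01 (SE 0.19, adjusted p = 7.00e-06 by limma). Of 15 tested axial progenitor genes 3 rose and 2 fell, with a median of -0.01. Hes3, a repressor of the Hes family found in axial progenitors, rose by 2.58 (SE 0.29, adjusted p = 0.0024 by limma), and Cyp26a1, an enzyme that breaks down retinoic acid, fell by 2.67 (SE 0.30, adjusted p = 0.0024 by limma).

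The summed levels of markers of other cell types were lower in the T KO library at both stages. The blood and vessel sum was 832 FPKM in WT and 427 in T KO at TS12, and 2389 and 1842 at TS13, with 0 of 9 tested genes passing in the fit. The lateral and intermediate mesoderm sum was 124 and 94.1 FPKM at TS12 and 118 and 65.0 at TS13, and 1 of 8 tested fell (Foxf1, a splanchnic mesoderm factor, which fell by 1.24). The surface ectoderm sum was 110 and 103 FPKM at TS12 and 92.6 and 72.3 at TS13, with 1 of 4 rising (Grhl3, an epidermal factor, by 1.09). No blood or lateral mesoderm marker was at 0 in these libraries, and their part in the SoxB1 differences was not tested. Sox3 is X-linked, and the median difference of X-linked genes was 0.06 at TS12 and -0.04 at TS13, against 0.03 and -0.04 for all genes.

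In Tbx6+ cells of TS14, Sox2 differed widely between the 2 libraries and Sox1 and Sox3 were low in both. Sox2 was at 4.70 FPKM (4.25 to 5.18) in the library titled WT and 42.3 (41.03 to 43.5) in the one titled KO, a ratio of 8.99 (8.11 to 9.98). Sox1 was at 0.405 FPKM (0.306 to 0.526) and 0.991 (0.849 to 1.15), a ratio of 2.44 (1.80 to 3.37) from 56 and 174 fragments. Sox3 was at 0.410 FPKM (0.275 to 0.589) and 0.668 (0.510 to 0.860), and these intervals overlapped, with a ratio of 1.63 (1.03 to 2.63) from 29 and 60 fragments. Only Sox2 reached 5 FPKM, and only in the library titled KO. Its difference of 2.92 was exceeded by 12 of 7943 genes, where 2.54% were called higher and 1.56% lower. The counting interval of the Sox2 ratio lay above those of Sox1 and Sox3.

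The Sox2 level in the Tbx6+ library titled KO was about that of T KO cells at TS13, while the Sox1 and Sox3 levels were not. Sox2 was at 42.3 (41.03 to 43.5) and 43.5 FPKM (42.05 to 45) in these 2 libraries, with overlapping intervals, whereas Sox1 was at 0.991 against 9.98 FPKM and Sox3 at 0.668 against 11.0. T mRNA was at 166 FPKM in the Tbx6+ library titled WT and 471 in the one titled KO, against 3.32 in T KO cells of TS13. Of 9 measured neural progenitor genes 1 was at least 2-fold higher in the library titled KO, Pax3 at 17.2 against 1.95 FPKM. As many as 2 were lower, Gbx2, a homeobox factor, at 6.92 against 17.8 FPKM, and Fabp7 at 7.75 against 18.02. The blood and vessel sum was 264 FPKM in the library titled KO against 27.7, where Slc4a1 and Gata1 were at 0, and the lateral mesoderm sum was 19.1 against 57.5, where Lhx1 was at 0. Of 13 measured axial progenitor genes 8 were higher in the library titled KO by at least 2-fold and 2 lower, and of 15 presomitic and paraxial mesoderm genes 12 were lower and 0 higher. The 8 include T itself. The 12 include Tbx6 itself, at 10.2 FPKM in the library titled KO against 31.5. Of 3 measured surface ectoderm markers 2 were lower, with sums of 22.2 FPKM in the library titled KO, where Krt5 and Dlx5 were at 0, and 58.9 in the one titled WT, where Dlx5 was at 0. The 2 measured endoderm and notochord markers were both lower, with sums of 12.4 and 34.3 FPKM and no marker at 0. The part of these lists in the Sox2 difference was not tested.

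The order of libraries within the knockout table differed among the 3 genes. Sox1 ran from WT T+ of TS12 through Tbx6+ titled WT, WT T+ of TS13, Tbx6+ titled KO and T KO of TS12 to T KO of TS13. The intervals of neighbours overlapped for the first 3 libraries, step by step, and for Tbx6+ titled KO with T KO of TS12. Sox2 ran from Tbx6+ titled WT through WT T+ of TS12, WT T+ of TS13 and T KO of TS12 to Tbx6+ titled KO and T KO of TS13, where only the last 2 overlapped. Sox3 was lowest in both Tbx6+ libraries, then in both WT T+ libraries, which overlapped within each pair, and highest in T KO of TS12 and TS13.

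The make-up of the summed SoxB1 level followed from these differences. Sox2 was the highest of the 3 genes per length in each of the 9 libraries. It made up 82.9% of the summed FPKM in T+, 58% in T+ Sox2+ and 46% in Sox2+ cells, while the sum went from 3.40 through 28.3 to 110 FPKM. In T+ cells of the knockout table its share was 80.6% and 82.4% in WT and 66.4% and 67.5% in T KO at TS12 and TS13. The rest differed with stage: at TS12 T KO cells held 27.9% Sox3 and 5.69% Sox1, and at TS13 17.0% and 15.5%. The Tbx6+ libraries held 85.2% Sox2 when titled WT and 96.2% when titled KO, the highest share of any library, with sums of 5.51 and 43.9 FPKM. So 2 libraries with summed levels of 64.5 (T KO, TS13) and 43.9 FPKM (Tbx6+ titled KO) had unlike make-ups.

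**Figure D3:**
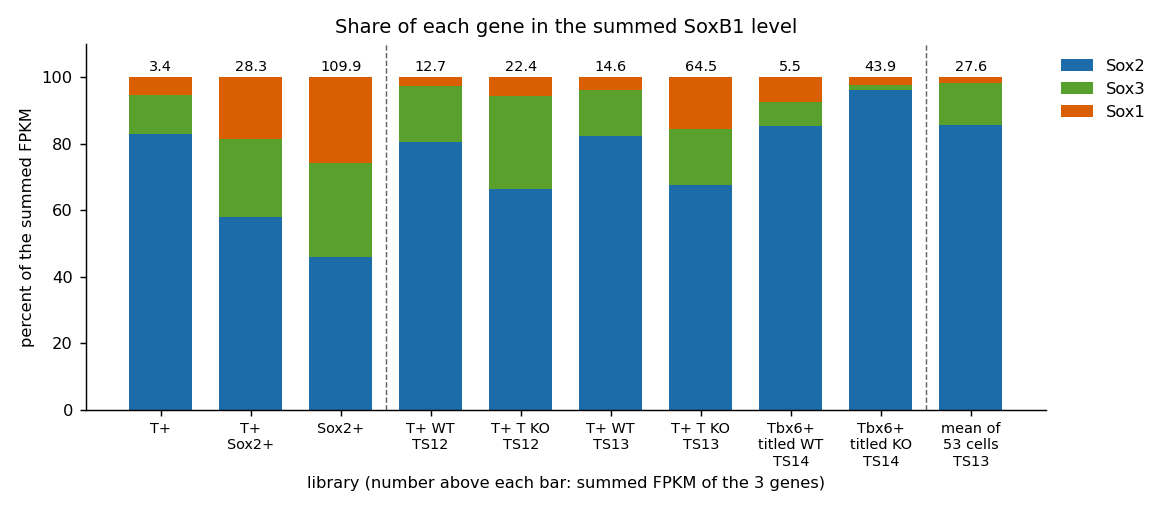
Share of Sox2, Sox3 and Sox1 in their summed FPKM in each bulk library and in the mean of the 53 cells, with the sum in FPKM above each bar; dashed lines part the 3 tables. The Sox2 share falls from 82.9% in T+ to 46% in Sox2+ cells and reaches 96.2% in the Tbx6+ library titled KO.

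Of the other 17 Sox genes, 3 to 6 reached the minimum of 5 FPKM in a pair of libraries. Sox11, Sox4 and Sox12, the SoxC factors of progenitors and newly formed neurons, were the most widely expressed, and 0 of 3 passed 2-fold in any of the 8 pairs. Sox11 ran from 64.2 to 77.1 FPKM over the sorted fractions and from 44.2 to 78.8 over the knockout table. Sox13, a SoxD factor, was at 56.6 FPKM in Sox2+ cells against 25.7 in T+ Sox2+ and 23.6 in T+ cells, differences of -1.11 and -1.23 from Sox2+. Sox7 and Sox18, SoxF factors of vessel cells, were at 5.91 and 5.16 FPKM in T+ cells and under 1 FPKM in the other fractions, beside the blood and vessel markers given above. Sox21, a SoxB2 gene and close relative of SoxB1, was at 3.46 FPKM in Sox2+ cells and at most 0.376 elsewhere. In T KO over WT, 0 of the 4 other Sox genes measured at TS12 and 0 of the 5 at TS13 passed 2-fold, and limma called 0 of 5. Most were nonetheless higher in T KO. At TS12 they differed by 0.25 to 0.50, with a median of 0.40 against 0.03 for all genes, beside 0.50 for Sox2. At TS13 they differed by -0.53 to 0.58, with a median of 0.51 against -0.04. Their median in the limma fit was 0.45. Sox2ot was between 0 and 1.33 FPKM in the 9 libraries, highest in T KO of TS13 (1.33) and Sox2+ cells (1.08).

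**Figure D4:**
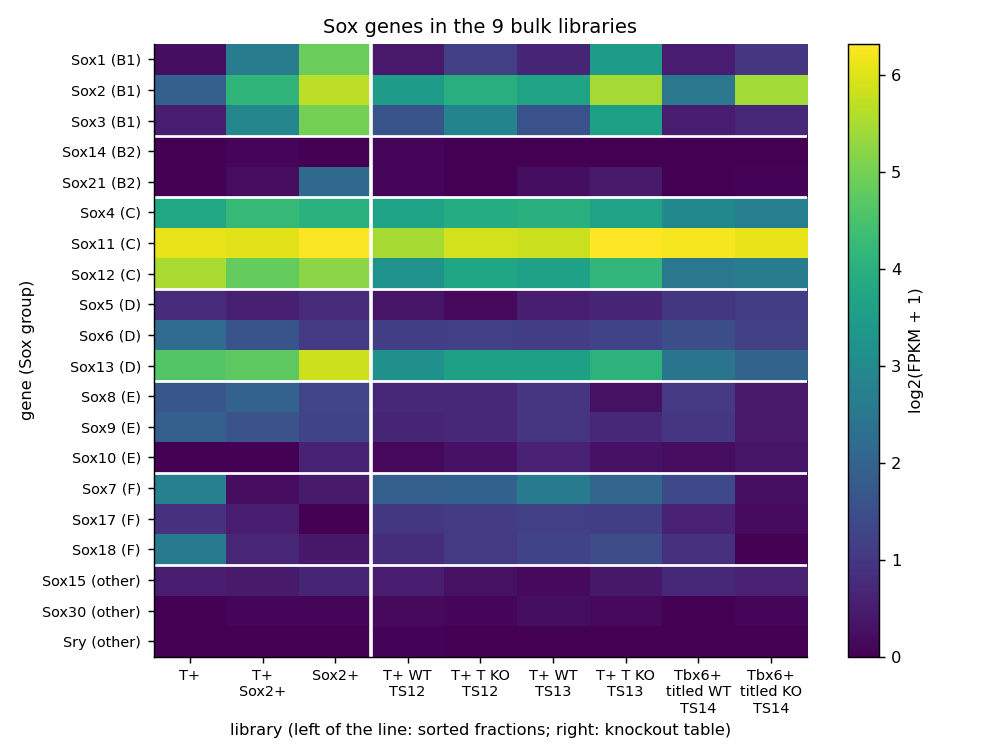
Level of the 20 Sox genes in the 9 bulk libraries as log2(FPKM + 1), colour from dark (0) to yellow, genes grouped by Sox subgroup and libraries by table. The SoxB1 rows vary across libraries, while the row of Sox11, a SoxC gene, stays between 44.2 and 78.8 FPKM.

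In the single T+ Sox2+ cells, Sox2 was present in most cells, Sox3 in fewer and Sox1 in few. At 1 FPKM or more, Sox2 was found in 46 of 53 cells (86.8%, exact binomial 95% interval 74.7% to 94.5%), Sox3 in 22 (41.5%, 28.1% to 55.9%) and Sox1 in 5 (9.43%, 3.13% to 20.7%). The 3 intervals did not overlap. All cells came from 1 run, so the intervals cover the drawing of cells only. T was at 1 FPKM or more in all 53 cells and Tbx6 in 46. The depth of a cell is unknown, and a value of 0 can be a failed estimate: Hprt and Tbp, genes that every cell uses, were listed at 0 in 27 and 8 cells.

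Levels in the cells kept the bulk order. Sox2 ran from 0 through a median of 21.2 to 77.4 FPKM, with a mean of 23.6 (SD 19.5, 53 cells). Sox3 ran from 0 through a median of 0 to 36.1 FPKM, with a mean of 3.50 (SD 6.97) and a median of 6.00 over the 22 cells at 1 FPKM or more. Sox1 was at 12.1, 5.70, 3.88, 2.37 and 1.34 FPKM in its 5 cells and listed at 0 in the others, with a mean of 0.479. The mean of the cells was 85.6% Sox2, against 58% in the bulk T+ Sox2+ library of TS12, where Sox1 was at 5.28 and Sox3 at 6.61 FPKM. These tables differ in stage, kit and RNA selection and were made separately, so no test links them. Across cells the coefficient of variation was 0.828 for Sox2, 1.99 for Sox3 and 3.98 for Sox1, against 0.438 for Sox11, which was above 0 in all 53 cells.

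Sox1 was found in cells that also held Sox3. At 1 FPKM or more, 28 cells held Sox2 alone, 14 Sox2 with Sox3, 4 all 3 genes, 1 Sox1 with Sox3, 3 Sox3 alone and 3 none. All 5 cells with Sox1 thus held Sox3, at 1.43 to 28.5 FPKM, and 4 of them Sox2. The Pearson correlation of log2(FPKM + 1) over the 53 cells was 0.36 for Sox1 with Sox3, -0.09 for Sox1 with Sox2 and 0.06 for Sox2 with Sox3, given as descriptions since the cells share 1 run. The first rests on 5 cells and was 0.21 without the 2 cells farthest from the median of Sox1. T correlated with Sox2 at -0.23, with Sox1 at 0.05 and with Sox3 at 0.03. The number of genes above 0 per cell, 4514 to 10177, correlated with the 3 genes at 0.12 to 0.17. Sox3 was above 0 in every cell of capture sites 37 to 47, where 7216 to 10177 genes were above 0. In most cells of sites 1 to 36 it was listed at 0. Among sites 90 to 95, with only 4514 to 6210 genes above 0, Sox3 was above 0 at 90, 92, 93 and 95. It was listed at 0 at 91 and 94. The highest Sox3 level, 36.1 FPKM at site 90, was in the cell with the fewest genes above 0, 4514. Sox1 was found at sites 37, 38 and 42, and outside sites 37 to 47 at 7 and 16. These ranges of sites were picked after the values were seen. The part of detection in the shares and in the overlap of Sox1 with Sox3 was not tested.

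**Figure D5:**
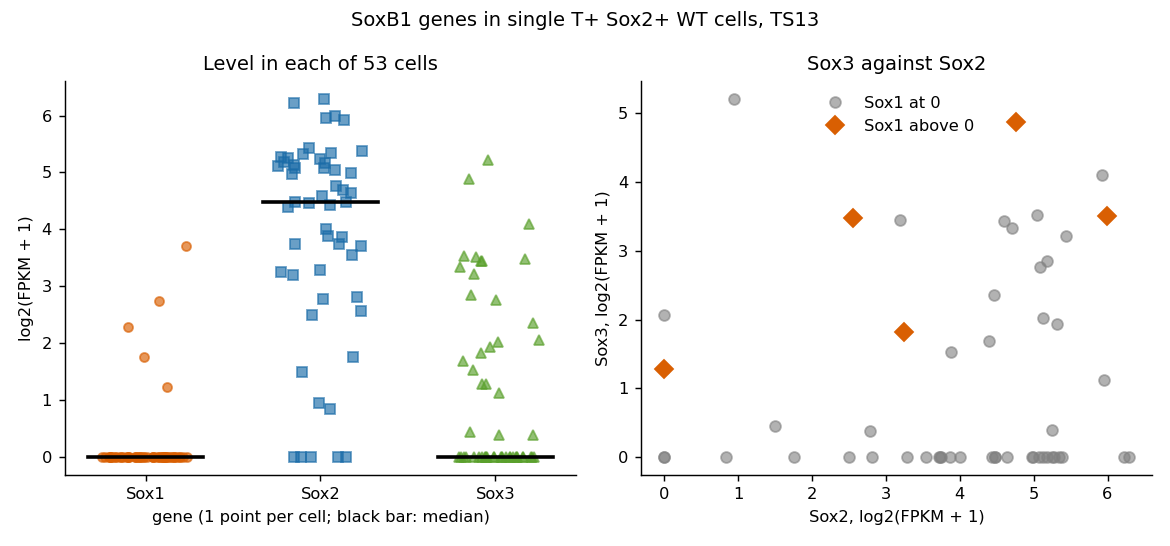
Left, log2(FPKM + 1) of each SoxB1 gene in each of 53 T+ Sox2+ cells, with the median as a black bar; right, Sox3 against Sox2 in the same cells, with the 5 cells above 0 for Sox1 as diamonds. Sox2 is above 0 in 48 cells, Sox3 in 25 and Sox1 in 5, and every diamond has Sox3 above 0.

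Genes with the most similar pattern were ranked by Pearson correlation of log2(FPKM + 1). Over the 6 libraries of the knockout table, those nearest to Sox1 were Lamb2 (0.994), Ralgds (0.989), Atp13a2 (0.982), 4930452B06Rik (0.982) and Ablim1 (0.977). Among the nearest to Sox2 were Pick1 (0.991), Hint3 (0.986), Tesk2 (0.978) and Klhl24 (0.978). Nearest to Sox3 were Nr2c2 (1.000), Arid3a (0.997), Mms19 (0.996), Rbm33 (0.995) and Nrn1 (0.994). With 6 points such values are common: of 8757 other genes, 68 were above 0.9 with Sox1, 56 with Sox2 and 262 with Sox3. The members correlated with each other at 0.79 (Sox1 with Sox3), 0.70 (Sox1 with Sox2) and 0.46 (Sox2 with Sox3), and 276, 467 and 1116 genes were more like the first gene of the pair than the second gene was.

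Over the 53 cells the nearest genes were weakly related and different ones. They were Slitrk5 (0.58), Rab21 (0.50), Ccdc28a (0.50), Msl3l2 (0.50) and Acadsb (0.48) for Sox1, whose values rest on 5 cells. For Sox2 they were Higd2a (0.57), Ddah2 (0.53), Ctps (0.51), Sumo3 (0.50) and Arhgap24 (0.49), and for Sox3 Asb13 (0.57), Nit1 (0.52), Fam178a (0.51), Ptpmt1 (0.47) and Smim19 (0.47). No gene was above 0.9 with any member, and at most 3 of 7918 were above 0.5. Sox3 was more like Sox1 than all but 45 of 7918 genes.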

How the data were processed

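The authors deposited 3 tables of FPKM with 1 row per gene symbol. The submitters' processing notes name TopHat2 2.1.0, Cufflinks 2.2.1, Cuffdiff for bulk samples, Cuffnorm for cells, Bowtie 1.1.2, Picard 1.103, bedtools 2.23.0, SAMtools and mm10; for annotation, strand setting and scaling, the choice is not given in the sources used here. Per the labels' protocols, the sort table used TotalScript (RNA of about 2500 cells, about 1000 cells' worth a library, 14 cycles) and the knockout table ScriptSeq v2 (about 20000 cells, ribosomal RNA depletion, 15 cycles), both with DNase. Each difference was made within 1 table. Of 79 samples, 17 chromatin samples were not analysed here.

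Counts and ranks over all genes used 21586 symbols, without small RNAs, numbered models, mitochondrial genes, ribosomal pseudogenes and joined symbols. The sorted or deleted genes (T, Tbx6, Sox2) did not enter counts over all genes between libraries. List counts between libraries did include T, in the axial progenitor list, and Tbx6, in the presomitic and paraxial mesoderm list. T and Tbx6 were left out of the limma fit and of the summed levels. Depth came from genes up to 6000 bases long whose FPKM times RefSeq length lay within a relative tolerance of 0.0003 of up to 15 whole fragments. Since FPKM is not a count, the test was limma 3.58.1 in R 4.3.3 (empirical Bayes, trend) on log2(FPKM + 1). It took genes of at least 5 FPKM in 1 library and was tried on simulated data. Those data had the same noise for all genes and equal effects at both stages. They therefore do not show how the test behaves where effects differ between stages. Python 3.11.15, pandas 2.3.3 and scipy 1.17.1 did the rest.

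Named genes were the 3 members, T, Tbx6, Sox2ot, the 5 genes most like each member (in cells, of those with at least 5 FPKM in 10 cells) and, from each list, up to 2 highest and 2 lowest past the call, of which some are printed and some are not reported here; other Sox genes were named after their values were seen. Members and lists were chosen with earlier results of these data known. Alternatives were pseudocounts of 0.1 and 5, no minimum or 20 FPKM, upper-quartile scaling, no stage term and a minimum fold of 1.5. Promoters are RefSeq's for GRCm38.p6, matched for 2 of 3 members.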

Additional observations from a re-analysis of the deposited data

How the results depend on the processing

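For T KO over WT across both stages, limma kept the direction of each of the 3 genes under every alternative in which it was tested; Sox1 was below the minimum without the T KO library of TS13. Sox1 (1.79) and Sox2 (1.14) passed only with no filter on low values, where 238 genes rose and 344 fell instead of 39 and 52. The Sox3 difference was 1.61 without the stage term and against a minimum fold of 1.5, and 1.36 with upper-quartile scaling, and did not pass there; leaving out 1 library, with no stage term, gave 1.25 (without the T KO library of TS13) to 1.97, and none passed. With a minimum of 20 FPKM, Sox1 and Sox3 were not tested. The counts were 3 and 11 without the stage term, 10 and 13 with a minimum of 20 FPKM, 5 and 19 against a minimum fold of 1.5, 7 and 61 with upper-quartile scaling (median of all genes -0.31), and 0 to 6 and 6 to 20 on leaving out 1 library. The fits with 3 libraries tested 8261 to 8359 genes, of which 488 to 988 had an unadjusted p under 0.05. At TS12, 0 members passed 2-fold with a pseudocount of 5 and with upper-quartile scaling, against 1; in the other 7 pairs the number of members past 2-fold stayed within 1 of the main one. Of 24 member differences, 19 moved beyond counting error with a pseudocount of 5 and 15 with 0.1, with 0 changes of sign. At 10 FPKM or more, the share of cells was 1.89% for Sox1, 69.8% for Sox2 and 11.3% for Sox3. Genes past 2-fold, in the order of the plot of 8 pairs from top to bottom, numbered 249, 267, 587, 168, 218, 121, 129 and 326. They numbered 115, 143, 344, 80, 91, 61, 48 and 147 with a pseudocount of 5, and 109, 93, 208, 67, 67, 65, 49 and 129 with a minimum of 20 FPKM. Leaving out libraries and subtracting the sensory receptor level were chosen after seeing the data. No paired analysis was possible because every bulk group has 1 library and the labels give no replicate numbers that groups share. Depth limits most the levels of Sox1 and Sox3 in T+ cells of the sort (21 and 24 fragments), Sox3 in the Tbx6+ library titled WT (29) and Sox1 in WT cells of TS12 (30).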
